A study of Mus musculus with 8 samples.

Results

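The nuclei described here belong to a stromal population of mouse kidney and were picked by 5 genes, Adamtsl1, St6galnac5, Alx1, Smoc2 and Dcn. A nucleus was a member when at least 2 of these genes had a UMI (a unique molecular identifier, 1 per captured transcript), when the 5 genes together had at least 3 UMIs, and when Ak5, Col14a1, Flt1 and Myh11 had none. This gave 2180 members among 81391 nuclei that passed quality control. All 8 libraries came from male mice on the C57BL/6J background. The cKOt mice were Bmal1lox/lox/Pax8-rtTA/LC-1 Cre, and the Ctrl mice were Bmal1lox/lox littermates without both transgenes. Both genotypes drank doxycycline (2 mg/ml, with 20 mg/ml sucrose) for 2 weeks from the age of 8 weeks under 12 h of light and 12 h of dark. Kidneys were sampled at ZT4 or ZT16, that is, 4 or 16 h after lights on, with 2 mice for each genotype and time. The Pax8 promoter confines Cre to tubular epithelium, so the deletion of Bmal1 (Arntl) is not directed at stromal cells. With 2 mice a group, the p-values below set each difference against a spread estimated from few mice.

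Interstitial fibroblasts fill the space between renal tubules and vessels, lay down collagens, proteoglycans and glycoproteins, and release signals that act on the neighbouring epithelium. Like most cells they hold a circadian clock, in which BMAL1 with CLOCK or NPAS2 binds E-boxes (CACGTG) and switches on Per, Cry and Nr1d genes, whose products repress the same activators. REV-ERB proteins (Nr1d1, Nr1d2) and activating receptors such as those of Rora and Rorb compete at a second element and set the rhythm of Arntl and Npas2.

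The libraries contributed 180 to 356 members each, with 577924 to 1193619 UMIs in the members' sums and a median of 1927 to 3117 UMIs per member. Of the 80565 distinct barcodes of nuclei that passed quality control, 823 occurred in more than 1 library (1.02%), and no barcode occurred among the members of more than 1 library. Doublets scored by Scrublet made up 6.97% to 11.7% of the members and were kept. Among all nuclei that passed quality control they made up 4.75% to 5.90%, less than among the members in every library. A UMI of at least 1 of 5 proximal tubule genes was carried by 64.7% to 81.2% of the members in the Ctrl libraries and by 79.7% to 87.2% in the cKOt libraries. A UMI of an adipocyte gene was carried by 8 and 11 members in cKOt at ZT4 (3.10% and 3.33%) and by 0 to 7 in the other libraries (up to 2.75%). Among all nuclei that passed quality control it was carried by 1.96% and 5.30% in cKOt at ZT4 and by 0.820% to 2.07% in the other libraries. The UMIs of Arntl cannot check the deletion, because transcripts are counted whichever exons they hold. In proximal tubule nuclei Arntl stood at 14.5 and 16.5 CPM in Ctrl at ZT4, 201 and 227 CPM in Ctrl at ZT16, 309 and 216 CPM in cKOt at ZT4 and 317 and 298 CPM in cKOt at ZT16. CPM are UMI counts of the summed nuclei brought to 1 common total of mRNA UMIs, or of lncRNA UMIs for lncRNAs, with TMM scaling. Levels that describe members against other nuclei are CPM of all UMIs, counted outside the mitochondrial genes and without this scaling.

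Adamtsl1, which encodes a secreted ADAMTS-like matrix glycoprotein, was the gene the selection mostly rested on. It had a UMI in 2104 members (96.5%, library range 91.0% to 98.9%) with a median of 12 UMIs. St6galnac5, a sialyltransferase, was found in 1538 members (70.6%) and Alx1, a homeobox transcription factor, in 1323 (60.7%). Smoc2, a secreted calcium-binding matrix protein, was found in only 392 members (18.0%) and the proteoglycan gene Dcn in 264 (12.1%), so neither of these leads the group. Smoc2 and Dcn occurred together in 80 members, which is 20.4% of those with Smoc2 and 30.3% of those with Dcn. The population is therefore called Adamtsl1/Alx1 stromal nuclei here. These 5 genes chose the members, and their values carry no test.

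The choice had a soft lower edge. Exactly 2 of the 5 genes were present in 1154 members, 3 in 823, 4 in 171 and all 5 in 32, and 553 members (25.4%) qualified through Adamtsl1 and St6galnac5 alone. A median of 16 UMIs of the 5 genes per member stood well above the limit of 3, at which 100 members lay. Just outside were 207 nuclei with 2 of the genes and 2 UMIs, and 1110 nuclei had 3 or more UMIs of only 1 gene. A further 2173 nuclei met the positive criteria but carried a UMI of Ak5, Col14a1, Flt1 or Myh11.

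General stromal markers were present. Pdgfra, the receptor for platelet-derived growth factor that marks fibroblasts, had a UMI in 71.7% of members against 3.47% of proximal tubule nuclei, the transcription factor Meis1 in 75.8% against 24.9%, the laminin gene Lama2 in 66.5% against 6.35% and the collagen gene Col1a2 in 42.2% against 2.2%. Lum was nearly absent (0.550%). The 11 listed stromal markers summed to 2369 to 3726 CPM of all UMIs across libraries in members, 3301 to 5467 in the Ak5/Col14a1 stromal nuclei, a set of 4556 nuclei used for comparison, and 104 to 183 in 17095 proximal tubule nuclei. Markers of cortical fibroblasts summed to 4864 to 7099 CPM of all UMIs in members, 4552 to 7290 in Ak5/Col14a1 nuclei and 141 to 396 in proximal tubule nuclei. One of them, Negr1, was found in 87.9% of members and 58.6% of Ak5/Col14a1 nuclei. Markers of medullary fibroblasts summed to 677 to 1191 CPM of all UMIs in members, 312 to 452 in Ak5/Col14a1 nuclei and 269 to 696 in proximal tubule nuclei. Among them Tnc (tenascin C) was found in 42.4% of members and 2.9% of Ak5/Col14a1 nuclei, the potassium channel gene Kcnk2 in 31.2% and 13.5%, and the prostaglandin synthase gene Ptgs2 in 7.43% and 0.290%, whereas Syt1 (0.550%) and Gabrg3 (1.06%) were rare in members.

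Markers of other cell types were also counted. The endothelial gene Emcn had a UMI in 60.5% of members, against 23.7% of Ak5/Col14a1 nuclei and 10.4% of proximal tubule nuclei, while the endothelial genes Kdr and Pecam1 were each found in 3.85% of members. Proximal tubule markers summed to 2080 to 3524 CPM of all UMIs in members and 11434 to 15091 in the proximal tubule nuclei. Slc34a1, the phosphate transporter of the proximal tubule, was found in 58.8% of members, 61.4% of Ak5/Col14a1 nuclei and 99.9% of proximal tubule nuclei, at median depths per library of 1927 to 3117 UMIs in members, 2249 to 3633 in Ak5/Col14a1 nuclei and 4051 to 6678.5 in proximal tubule nuclei. Loop and distal tubule markers summed to 1216 to 2519 CPM of all UMIs in members, 1191 to 1930 in Ak5/Col14a1 nuclei and 963 to 2040 in proximal tubule nuclei. Endothelial markers other than Flt1 summed to 602 to 1103 in members, 195 to 281 in Ak5/Col14a1 nuclei and 447 to 703 in all nuclei outside the members. Immune markers (23.9 to 94.4 CPM of all UMIs), podocyte markers (23.4 to 161) and adipocyte markers (15.1 to 228) were low, and Adipoq had 1 UMI in all members together.

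**Figure D1:**
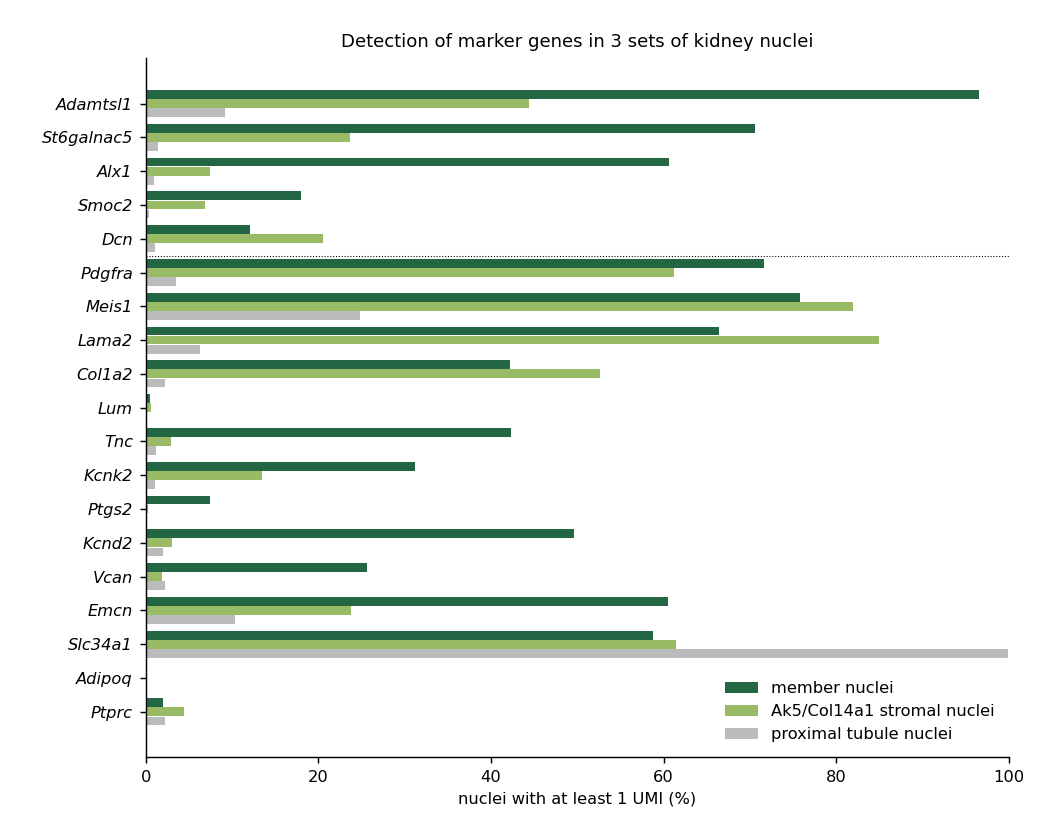
Horizontal bars give the percentage of nuclei with at least 1 UMI of each gene in members, Ak5/Col14a1 stromal nuclei and proximal tubule nuclei, pooled over the 8 libraries; the 5 genes above the dotted line chose the members. Adamtsl1 reaches 96.5% of members and Tnc 42.4%, while Lum and Adipoq are near 0 and Slc34a1 is found in 58.8% of members.

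Outside the 5 genes, members stood furthest above all other nuclei in the following genes, among others. Gm32647, a lncRNA, stood at 1037 CPM of all UMIs in members and 14.5 in the rest, and 6530403H02Rik at 945 and 18.5. Kcnd2, a voltage-gated potassium channel, stood at 900 against 17.7 CPM of all UMIs and was found in 49.6% of members. Tnn (tenascin N) stood at 505 against 14.5, Tnc at 436 against 10.5 and the proteoglycan gene Vcan at 288 against 9.09. Cck, the gene of the peptide cholecystokinin, stood at 192 against 4.33 and the adhesion molecule gene Cntn1 at 235 against 4.34. Relative to Ak5/Col14a1 nuclei, members held less Igfbp3, an IGF-binding protein (47.4 against 882 CPM of all UMIs), less Rbfox1 (68.7 against 1204), less Nrxn3 (28.2 against 475) and less Hpgd, which degrades prostaglandins (8.12 against 172). These contrasts follow from how the nuclei were sorted and are a description.

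Members differed among themselves along the split between Alx1 and the pair Smoc2 and Dcn. The 1323 members with Alx1 were compared with the 304 that had Smoc2 or Dcn but no Alx1 and with the 553 that had neither Alx1 nor this pair. Lhfpl3 stood at 356 CPM of all UMIs in the first set, 20.3 in the second and 366 in the third, and Vcan at 397, 41.7 and 221. Tnc (505, 85.6 and 457) and the repressor gene Ahrr (143, 11.8 and 101) followed the same order of low levels in the second set. The second set was the higher one for the transcription factor gene Foxp2 (9.54, 195 and 11), the lncRNA Meg3 (18.6, 150 and 13.1), the glypican gene Gpc3 (24.9, 150 and 25.5) and Mgp, an inhibitor of calcification (51.5, 194 and 73.2). Lhfpl3, Vcan and Ahrr were higher with Alx1 than in the second set in 8 of 8 libraries, and Foxp2 and Gpc3 were lower in 8 of 8. These genes were picked as the furthest apart between the first and the second set, so the levels are a description.

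The share of members among nuclei showed no change with time or genotype beyond the spread between mice. It was 2.41% and 2.56% in Ctrl at ZT4, 2.49% and 3.29% in cKOt at ZT4, 3.34% and 2.69% in Ctrl at ZT16 and 2.06% and 2.50% in cKOt at ZT16. The ZT16 libraries averaged 2.65% ± 0.535 (SD, n = 4) and the ZT4 libraries 2.69% ± 0.409, a difference of -0.0388 points (two-sided exact permutation test, p = 0.943, adjusted p = 0.943 over 4 comparisons). The cKOt libraries averaged 2.58% ± 0.516 and the Ctrl libraries 2.75% ± 0.413, a difference of -0.166 points (exact permutation test, p = 0.6, adjusted p = 0.8). With 4 libraries against 4 the smallest p this test can give is 0.0286. The median UMI count per member was 2578 ± 402 at ZT16 and 2369 ± 345 at ZT4 (exact permutation test, p = 0.457, adjusted p = 0.8), and 2590 ± 396 in cKOt and 2357 ± 341 in Ctrl (p = 0.343, adjusted p = 0.8 by the same exact test). Alx1 was carried by 45.3% to 71.4% of a library's members.

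The comparison of ZT16 with ZT4, averaged over the genotypes, asked which genes of these nuclei differ between the light and the dark phase. Of 10969 mRNAs tested, 11 were called at an adjusted p under 0.05 (0.100%), 6 higher and 5 lower at ZT16. Cry1 and Per2 of the clock were among the higher ones and Nr1d1 among the lower ones, beside 7 genes outside the clock, Ryr2, Egflam and Lonrf3 higher and Thsd4, St6galnac3, Ctnna2 and Sept9 lower. Called genes were named here only where the ZT4 and ZT16 libraries did not overlap, so the lack of overlap in these 10 is no further evidence. An unadjusted p under 0.05 was reached by 915 mRNAs, and DESeq2 called 26.

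Promoter windows were read for the called genes from RefSeq on GRCm38.p6, from 250 bases before to 50 bases after the start, to show where an E-box lies next to genes that differed by time. Cry1 (chr10:85185005-85185304, minus strand), Lonrf3 (chrX:36328159-36328458, plus strand) and St6galnac3 (chr3:153725084-153725383, minus strand) each held 1 copy of CACGTG, a motif that reads the same on both strands, with its first base 60, 45 and 97 bases before the start. The E-box is in capitals.
Cry1: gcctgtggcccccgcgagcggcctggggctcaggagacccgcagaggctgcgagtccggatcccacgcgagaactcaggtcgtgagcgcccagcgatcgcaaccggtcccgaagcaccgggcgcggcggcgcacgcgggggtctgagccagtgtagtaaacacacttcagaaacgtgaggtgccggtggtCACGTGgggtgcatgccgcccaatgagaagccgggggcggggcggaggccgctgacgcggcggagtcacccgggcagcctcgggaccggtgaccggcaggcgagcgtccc
Lonrf3: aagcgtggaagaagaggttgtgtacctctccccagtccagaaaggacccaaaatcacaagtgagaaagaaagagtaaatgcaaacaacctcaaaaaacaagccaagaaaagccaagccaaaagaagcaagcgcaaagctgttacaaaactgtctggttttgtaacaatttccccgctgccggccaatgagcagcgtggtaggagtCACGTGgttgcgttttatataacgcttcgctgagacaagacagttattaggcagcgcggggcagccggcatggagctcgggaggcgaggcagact
St6galnac3: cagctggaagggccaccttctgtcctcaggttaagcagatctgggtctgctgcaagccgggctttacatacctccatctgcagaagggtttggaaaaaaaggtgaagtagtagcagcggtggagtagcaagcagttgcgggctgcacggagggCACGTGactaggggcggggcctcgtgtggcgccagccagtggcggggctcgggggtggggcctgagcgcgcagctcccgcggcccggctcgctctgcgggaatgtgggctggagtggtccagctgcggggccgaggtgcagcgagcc
CACGTG was present in 2349 of 32851 promoter windows of this length (7.15%). The windows of Nr1d1, Ryr2, Thsd4, Egflam, Ctnna2 and Septin9 (Sept9 in the files), and those of Nr1d2, Per3 and Dbp, did not hold it. TTATGTAA, a D-box sequence searched on both strands and found in 308 windows (0.938%), occurred at 2 places in the Per3 window. Per2 is named only. A match is a description and not a binding site, and Cry1 and Lonrf3 were higher at ZT16 while St6galnac3 was lower.

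Among the repressors of the clock, Cry1, whose product blocks CLOCK and BMAL1, stood at 4.28 and 7.17 CPM in Ctrl at ZT4, 18.8 and 21.7 in cKOt at ZT4, 43.2 and 50.3 in Ctrl at ZT16 and 49.6 and 53.8 in cKOt at ZT16. All ZT16 libraries lay above all ZT4 libraries, and among the latter the cKOt mice lay above the Ctrl mice. In proximal tubule nuclei Cry1 stood at 38.6 and 54.2 CPM in cKOt at ZT4, while the lowest Ctrl library at ZT4 stood at 2.21 CPM. What part tubular transcripts have in the genotype order among members was not tested. Cry1 rose 4.37-fold (log2 fold change 2.13, SE 0.27, adjusted p = 0.00478). Per2, which encodes the partner of CRY1 in the repressor complex, stood at 29.97 and 27.2 CPM in Ctrl at ZT4, 50.2 and 35.8 in cKOt at ZT4, 142 and 87.3 in Ctrl at ZT16 and 132 and 75.3 in cKOt at ZT16. It rose 3.16-fold (log2 fold change 1.66, SE 0.25, adjusted p = 0.0164), with no overlap of the times but a wide gap between the mice of each ZT16 pair.

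Nr1d1, the gene of the repressor REV-ERBα, went the other way. It stood at 15.0 and 47.3 CPM in Ctrl at ZT4, 25.1 and 28.2 in cKOt at ZT4, 2.95 and 0 in Ctrl at ZT16 and 3.10 and 3.07 in cKOt at ZT16, from 7 to 33 UMIs a library at ZT4 and 0 to 3 at ZT16. The fitted log2 fold change was -3.57 (SE 0.54, adjusted p = 0.0164), and every ZT4 library was above every ZT16 library. Its paralog Nr1d2 stood at 150 and 175 CPM in Ctrl at ZT4, 107 and 130 in cKOt at ZT4, 75.6 and 94.7 in Ctrl at ZT16 and 48.0 and 70.7 in cKOt at ZT16. The share of all mRNAs without overlap of the times is not given here. A lack of overlap in a gene that was not called is therefore a description. The times did not overlap for Nr1d2 either, but its log2 fold change of -0.97 (SE 0.18) did not pass the test (adjusted p = 0.0585), although it was called under 8 of 20 alternatives (adjusted p = 0.000143 to 0.344 over all of them).

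The activator genes Arntl, Npas2 and Clock gave no call. Arntl stood at 101 and 90.3 CPM in Ctrl at ZT4, 237 and 146 in cKOt at ZT4, 136 and 138 in Ctrl at ZT16 and 206 and 171 in cKOt at ZT16 (log2 fold change 0.26, SE 0.17, adjusted p = 0.754). Npas2, the paralog of Clock, had a log2 fold change of -0.06 (SE 0.19, adjusted p = 0.972), and Clock one of 0.17.

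Further clock genes did not pass the test. Dbp, a D-box activator, had a log2 fold change of -1.29 (adjusted p = 0.494), Tef one of 0.48 (adjusted p = 0.353), Hlf 0.30, Nfil3, a D-box repressor, 1.24 (adjusted p = 0.526), Per1 0.40 (adjusted p = 0.826), Cry2 0.03, Rora -0.12 and Rorb 1.23 (adjusted p = 0.526). Per3, counted among 15 accessory clock and output genes, stood at 45.0 and 50.2 CPM in Ctrl at ZT4, 37.6 and 34.7 in cKOt at ZT4, 97.2 and 54.8 in Ctrl at ZT16 and 77.5 and 73.7 in cKOt at ZT16, higher at ZT16 in every library but not called (0.88, SE 0.22, adjusted p = 0.198). The lack of overlap of the times for Per3 is likewise a description. No member of the accessory list was called (10 tested, median 0.04).

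Ryr2, which encodes a calcium release channel of the endoplasmic reticulum, rose 3.85-fold (log2 fold change 1.95, SE 0.23, adjusted p = 0.00323). It stood at 32.1 and 48.7 CPM in Ctrl at ZT4, 12.5 and 11.9 in cKOt at ZT4, 79.5 and 99.2 in Ctrl at ZT16 and 96.1 and 75.3 in cKOt at ZT16. Here the cKOt libraries were the low ones at ZT4, opposite to Cry1. Egflam, an extracellular matrix glycoprotein gene, stood at 87.8 to 171 CPM in the 4 libraries at ZT4 and 220 to 280 CPM in those at ZT16, a 1.91-fold rise (0.94, SE 0.16, adjusted p = 0.0347). Lonrf3, a RING finger gene, stood at 8.56 to 32.9 CPM at ZT4 and 49.2 to 63.7 at ZT16, a 2.80-fold rise (1.48, SE 0.25, adjusted p = 0.0356).

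Thsd4, which encodes an ADAMTS-like protein of the microfibrils, stood at 617 and 560 CPM in Ctrl at ZT4, 574 and 1001 in cKOt at ZT4, 241 and 258 in Ctrl at ZT16 and 231 and 270 in cKOt at ZT16. It was 2.73-fold lower at ZT16 (log2 fold change -1.45, SE 0.17, adjusted p = 0.00323), and the 4 libraries at ZT16 lay close together. St6galnac3, a sialyltransferase gene, stood at 593 and 553 CPM in Ctrl at ZT4, 616 and 661 in cKOt at ZT4, 292 and 265 in Ctrl at ZT16 and 287 and 327 in cKOt at ZT16. It was 2.07-fold lower (log2 fold change -1.05, SE 0.13, adjusted p = 0.00323). Ctnna2, which encodes the neuronal alpha-catenin, stood at 153 to 246 CPM at ZT4 and 62.8 to 150 CPM at ZT16 (-1.16, SE 0.17, adjusted p = 0.0164). In proximal tubule nuclei Ctnna2 stood at 486 to 742 CPM at ZT4 and 141 to 338 CPM at ZT16. Sept9, a septin of the cytoskeleton, stood at 206 to 262 CPM at ZT4 and 108 to 154 CPM at ZT16 (-0.89, SE 0.14, adjusted p = 0.0283).

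**Figure D2:**
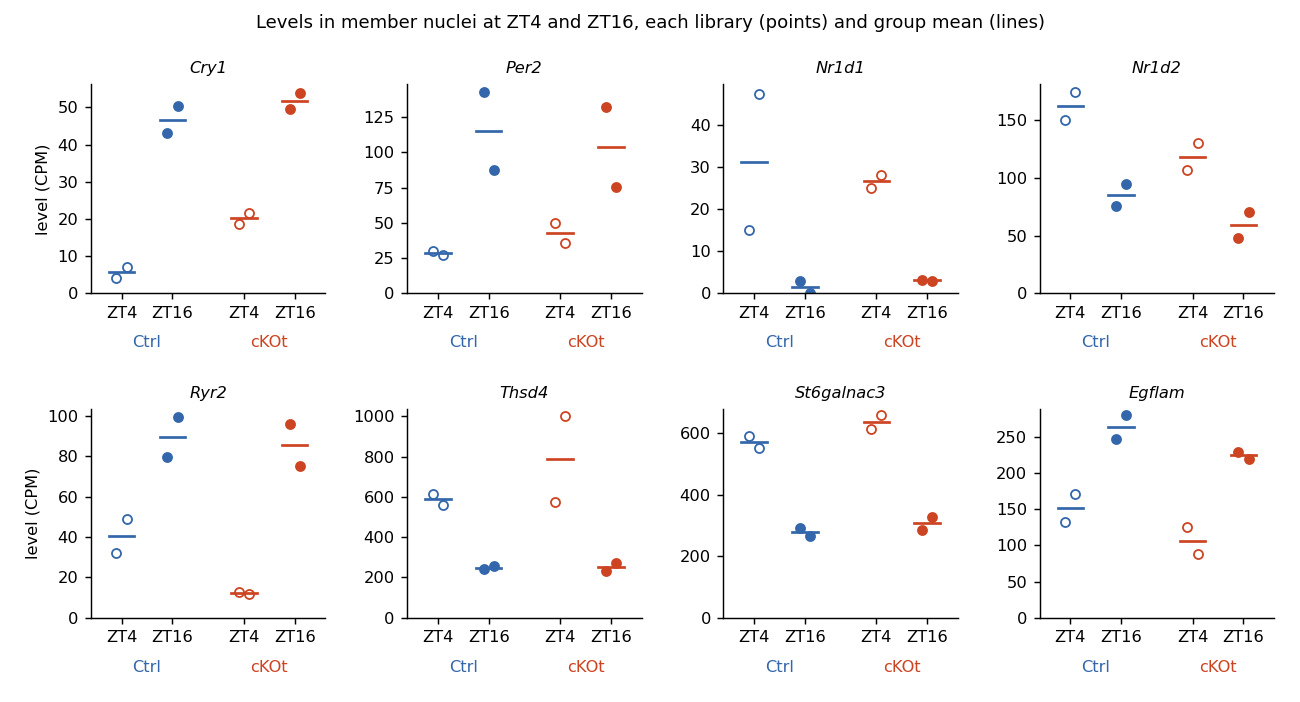
Each panel plots the level of 1 gene in CPM (y axis, from 0) in the 8 libraries, with open points for ZT4, filled points for ZT16, blue for Ctrl and red for cKOt, and a line at each group's mean. Thsd4 and St6galnac3 lie lower and Cry1, Per2, Ryr2 and Egflam higher in all 4 ZT16 libraries, and Nr1d1 drops to between 0 and 3.10 CPM.

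Cry1, Ryr2, Thsd4 and St6galnac3 were called in each of the 8 fits that left out 1 library, with adjusted p of at most 0.0317, 0.0252, 0.0294 and 0.0327. The other 6 named above lost the call in 3 to 7 of these fits, and none of them was called in the members without a proximal tubule UMI. Per2 was not called without Ctrl ZT4 replicates 1 or 2, cKOt ZT4 replicate 2, Ctrl ZT16 replicate 1 or cKOt ZT16 replicate 1 (adjusted p = 0.0662 to 0.14). Nr1d1 lost its call without Ctrl ZT4 replicate 2, cKOt ZT4 replicate 2, Ctrl ZT16 replicate 2 or cKOt ZT16 replicate 1 (adjusted p = 0.0671 to 0.103). Ctnna2 lost its call without Ctrl ZT4 replicate 1 or Ctrl ZT16 replicates 1 or 2 (adjusted p = 0.0679 to 0.14). Egflam was not called without Ctrl ZT4 replicate 1, cKOt ZT4 replicate 2, Ctrl ZT16 replicates 1 or 2 or cKOt ZT16 replicates 1 or 2 (adjusted p = 0.0636 to 0.148). Lonrf3 lost its call without Ctrl ZT4 replicate 1, cKOt ZT4 replicate 2, Ctrl ZT16 replicates 1 or 2 or cKOt ZT16 replicates 1 or 2 (adjusted p = 0.056 to 0.151). Sept9 was not called without Ctrl ZT4 replicates 1 or 2, cKOt ZT4 replicate 1, Ctrl ZT16 replicates 1 or 2 or cKOt ZT16 replicates 1 or 2 (adjusted p = 0.0542 to 0.147). With the members limited to those without a proximal tubule UMI, between 23 and 102 nuclei a library, Thsd4 and St6galnac3 were still called while Cry1 (2.79, adjusted p = 0.193) and Ryr2 (2.52, adjusted p = 0.112) were not.

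Of 873 lncRNAs, 16 were called between the times (1.83%), 5 higher and 11 lower at ZT16. An unadjusted p under 0.05 was reached by 109, and DESeq2 called 1. Gm32647, the lncRNA that leads these nuclei against all others, stood at 5226 and 6987 CPM of lncRNA UMIs in Ctrl at ZT4, 4178 and 3683 in cKOt at ZT4, 8098 and 11148 in Ctrl at ZT16 and 6981 and 10145 in cKOt at ZT16 (log2 fold change 0.89, SE 0.19, adjusted p = 0.0179). Its lowest ZT16 library lay just below its highest ZT4 library. Unc45bos (1.60, adjusted p = 0.0358) and Gm17167 (0.95, adjusted p = 0.0479) were higher, at 36.5 to 62.7 and 101 to 238 CPM for the former and 250 to 493 and 521 to 789 CPM for the latter. Both were likewise named for having no overlap. 9630014M24Rik was lower (173 to 415 CPM at ZT4 and 91.4 to 119 CPM at ZT16, log2 fold change -1.46, adjusted p = 0.0165), as was Wt1os, a transcript named for the opposite strand of Wt1 (-2.58, adjusted p = 0.0165), on 5 to 20 UMIs a library at ZT4 and 1 or 2 at ZT16. The call of Gm12840 (-2.46, adjusted p = 0.0293) was lost in 4 of the 8 fits that left out 1 library. In cKOt ZT4 replicate 2 it stood at 1289 CPM beside 70.5 to 128 CPM in the other ZT4 libraries. Without that library it had -1.19 (adjusted p = 0.24), and without Ctrl ZT4 replicate 2 or Ctrl ZT16 replicates 1 or 2 its adjusted p was up to 0.327. Gm32647 was not called without Ctrl ZT4 replicate 1, Ctrl ZT16 replicates 1 or 2 or cKOt ZT16 replicate 2 (adjusted p up to 0.228). Unc45bos and Gm17167 were called in only 1 of the 8 fits that left out 1 library, 9630014M24Rik in 4 and Wt1os in 5. Without the members with a proximal tubule UMI, 9630014M24Rik had -0.58 (adjusted p = 0.832), and Unc45bos and Wt1os had too few counts to be tested. Leaving out Ctrl ZT16 replicate 1 left 0 lncRNAs called.

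Gene groups beside the clock showed no called member between the times when averaged over genotypes. Of 22 collagen genes tested 9 were positive and 13 negative with a median log2 fold change of -0.04, where Col4a3 had -0.02 and Col4a4 -0.29. Matrix glycoproteins and proteoglycans had a median of 0.05 (33 tested; 18 positive, 15 negative), with Tnc at 0.01. Growth factor ligands split 21 to 20 over 41 genes (Cxcl12 0.08) and growth factor and hormone receptors 26 to 22 over 48 (Ghr 0.15, Igf1r -0.08). Heat shock and cold-inducible genes had a median of 0.14 over 22 genes (Hsp90ab1 0.11). The median was 0.47 in Ctrl alone (17 of 22 positive) and -0.40 in cKOt alone (15 of 21 negative). It was -0.83 for the difference between these time effects (18 of 22 negative, none called). The mice of each cKOt pair lay far apart, with list sums of 2163 and 1216 CPM at ZT4 and 1655 and 1177 at ZT16. In Ctrl the sums were 1267 and 1058 CPM at ZT4 and 1561 and 1605 at ZT16. The difference between the time effects was positive in 11 of 11 proximal tubule markers (median 0.37). It was also positive in 10 of 11 stromal markers (median 0.36), again without a call. Immediate early genes had a median of 0.38 over 16 (Egr1 -0.14, Btg2 0.51). Cholesterol and lipid droplet genes had a median of -0.24 over 23 genes, 7 positive and 16 negative. The list had a median of -0.46 in cKOt alone, where the summed adipocyte markers stood at 140.5 and 228 CPM of all UMIs at ZT4, against 15.1 to 43.3 in the other libraries, and their part in that median was not tested. Of the glucocorticoid targets, 15 tested, 8 were positive. Zbtb16, a transcription factor induced by glucocorticoids, ranged from 110 to 702 CPM at ZT4 and from 117 to 392 CPM at ZT16, so its log2 fold change of -0.95 lay within the spread between mice.

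Within each genotype the calls were fewer. In Ctrl 4 of 10498 mRNAs were called between the times (0.0381%). Cry1 (2.92, adjusted p = 0.0303), Thsd7a (-2.39, adjusted p = 0.0303) and Unc13c, a gene of vesicle priming (-2.06, adjusted p = 0.0363), were among them. In cKOt 4 of 10464 were called (0.0382%). Ryr2 (2.80, adjusted p = 0.00955) and Thsd4 (-1.65, adjusted p = 0.0257) were among them. So was Ebf2, a transcription factor of adipocyte precursors that was also on the list of stromal transcription factors. It had 29 and 33 UMIs in cKOt at ZT4 and 0 in both cKOt libraries at ZT16. Slc4a9, an anion exchanger of intercalated cells, was also called, higher at ZT16 (3.53, adjusted p = 0.0379). Adipocyte markers in members summed to 140.5 and 228 CPM of all UMIs in cKOt at ZT4, against 15.1 to 43.3 in the other libraries. Without the members that carried an adipocyte UMI, Ebf2 had too few counts to be tested and the adjusted p of Slc4a9 was 0.646. What part adipocyte transcripts have in the calls of Ebf2 and Slc4a9 was not tested. Among lncRNAs, 1 of 764 was called in Ctrl (0.131%; Wt1os, -3.60, adjusted p = 0.0198) and 6 of 755 in cKOt (0.795%), Gm32647 among them (1.12, adjusted p = 0.0486). Leaving out any of the 4 Ctrl libraries took the calls of Cry1 and Unc13c in Ctrl away (adjusted p up to 0.276 and 0.442), and Thsd7a and Wt1os were not called without Ctrl ZT4 replicate 2 or Ctrl ZT16 replicates 1 or 2 (adjusted p up to 0.428 and 0.68). Without the members with a proximal tubule UMI, Thsd7a had -1.09 (adjusted p = 0.884). In cKOt, Ryr2 was not called without cKOt ZT4 replicate 2 (adjusted p = 0.13) or cKOt ZT16 replicate 1 (0.18), and Thsd4 not without cKOt ZT4 replicate 2 or any 1 of the ZT16 libraries (adjusted p up to 0.42). Ebf2, Slc4a9 and Gm32647 lost their calls in cKOt in 3, 5 and 5 of the 8 fits that left out 1 library (adjusted p up to 0.178, 0.449 and 0.321).

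The difference between the time effects in cKOt and Ctrl was tested for 10969 mRNAs and 873 lncRNAs, and none was called (0% of each). An unadjusted p under 0.05 was reached by 457 mRNAs and 38 lncRNAs, and DESeq2 called 4 mRNAs and 0 lncRNAs. Unc13c, Thsd7a and Slc4a9 were among those with the smallest adjusted p, 0.0822, with differences of 2.87, 3.0 and 5.05 on the log2 scale. Cry1 rose by 2.92 in Ctrl and had a value of 1.33 in cKOt (adjusted p = 0.253), and Per2 had 2.03 and 1.29 (adjusted p = 0.0789 and 0.269). Nr1d1 had -4.10 and -3.05 and Nr1d2 -0.95 and -1.0. These effects were not shown to differ between the genotypes.

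The comparison of cKOt with Ctrl asked what changes in these stromal nuclei when tubular cells lack BMAL1. Averaged over the times, 4 of 10969 mRNAs were called (0.0365%), among them Hao2 and Npas2, higher in cKOt, and Cpne4, lower in cKOt. An unadjusted p under 0.05 was reached by 626, and DESeq2 called 8. Hao2, a peroxisomal hydroxyacid oxidase gene, stood at 21.4, 5.73, 20.6 and 7.40 CPM in the Ctrl libraries and 61.1, 95.4, 129 and 99.9 CPM in the cKOt libraries (log2 fold change 2.79, SE 0.33, adjusted p = 0.00714). Npas2 stood at 60.9 to 85.9 CPM in Ctrl and 152 to 229 CPM in cKOt (1.32, SE 0.19, adjusted p = 0.0173). Hao2 was called in each of the 8 fits that left out 1 library. Npas2 was not called without Ctrl ZT4 replicates 1 or 2, cKOt ZT4 replicate 1, Ctrl ZT16 replicate 1 or cKOt ZT16 replicate 1 (adjusted p up to 0.167). Proximal tubule nuclei held more Hao2 than members in all 8 libraries (means 128 and 55 CPM). They held more Npas2 in 6 libraries (means over all 8 of 346 and 131 CPM) and less in Ctrl at ZT4, at 17.1 and 29.7 CPM against 72.8 and 80.3 CPM in members. In the subset without a proximal tubule UMI, Hao2 had too few counts to be tested and Npas2 had 1.46 (adjusted p = 0.56). What part tubular transcripts have in these differences was not tested further.

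Cpne4, a calcium-dependent phospholipid-binding copine gene, stood at 220.5, 181, 98.2 and 77.0 CPM in the Ctrl libraries and 58.0, 52.0, 57.3 and 38.4 CPM in the cKOt libraries (log2 fold change -1.37, SE 0.18, adjusted p = 0.0168), while in the proximal tubule nuclei it was higher in cKOt (71.6 to 103 CPM) than in Ctrl (46.2 to 56.8 CPM). Without the members that carried a proximal tubule UMI it had -1.64 (adjusted p = 0.55). Leaving out Ctrl ZT4 replicate 1, Ctrl ZT16 replicate 1 or cKOt ZT16 replicate 2 took its call away, with adjusted p between 0.059 and 0.116. The lncRNA Gm33906 was the only 1 of 873 called (0.115%; 2.77, adjusted p = 0.000445). Its mean was 471 CPM of lncRNA UMIs in members and 1113 in the proximal tubule nuclei, and it ranged from 55.1 to 258 CPM in Ctrl and from 202 to 1250 CPM in cKOt, and without Ctrl ZT16 replicates 1 or 2 its adjusted p was 0.303 and 0.14. Mgp (-0.97, adjusted p = 0.0537), Acsl1 (0.95, adjusted p = 0.0663) and Arntl (0.73, adjusted p = 0.310) did not pass the test.

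At ZT4 alone 5 of 10334 mRNAs were called (0.0484%). Among them Acsl1, a long-chain acyl-CoA synthetase gene (1.73, adjusted p = 0.0139), and Ebf2 (3.88, adjusted p = 0.0494) were higher in cKOt, and Cpne4 (-1.86, adjusted p = 0.0139) and Mgp (-1.43, adjusted p = 0.0494) were lower. Members with Smoc2 or Dcn but no Alx1 held more Mgp than the other members, and their part in its call was not tested. Mgp stood at 122 and 130 CPM in Ctrl and 45.4 and 47.7 CPM in cKOt at this time. Its adjusted p lay above 0.05 in each of the 8 fits that left out 1 library (0.0567 to 0.508). Acsl1, Cpne4 and Ebf2 lost their calls at ZT4 in 3, 4 and 6 of these fits, each time including those without Ctrl ZT4 replicates 1 or 2 and without cKOt ZT4 replicate 2, and Cpne4 and Ebf2 also without cKOt ZT4 replicate 1 (adjusted p up to 0.174, 0.123 and 0.571). Without the members with an adipocyte UMI, Acsl1 had 1.18 (adjusted p = 0.24) and Mgp -1.39 (adjusted p = 0.109). Acsl1 had a mean of 282 CPM in proximal tubule nuclei and 117 CPM in members, and without the members with a proximal tubule UMI it had 0.53 (adjusted p = 0.949). Of 736 lncRNAs 4 were called (0.543%), among them A530053G22Rik with 42 and 30 UMIs in cKOt at ZT4 and 0 in each of the other 6 libraries. Without the members with an adipocyte UMI, or without those with a proximal tubule UMI, this gene had too few counts to be tested. At ZT16, 1 of 10579 mRNAs was called (0.00945%), Unc13c (2.24, adjusted p = 0.0477), at 23.6 and 31.1 CPM in Ctrl and 102 and 152 CPM in cKOt. It had a mean of 270 CPM in proximal tubule nuclei and lost the call without Ctrl ZT16 replicates 1 or 2 or cKOt ZT16 replicate 2 (adjusted p up to 0.46). Over all 20 alternatives its log2 fold change ranged from 0.47 to 2.82, and the call was lost in 8. Of 766 lncRNAs 2 were called (0.261%), Gm33906 and Gm13936 (3.38, adjusted p = 0.00117). Without Ctrl ZT16 replicates 1 or 2 their adjusted p were up to 0.509 and 0.327. Gm13936 had 2.35 without Scrublet doublets (adjusted p = 0.405), too few counts without the members with a proximal tubule UMI, and means of 228 CPM in proximal tubule nuclei and 117 CPM in members.

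No list other than the clock had a called member between the genotypes, averaged over times. The signs leaned to lower values in cKOt for matrix genes, though without a call and as a description. Of 22 collagens 18 were negative (median -0.35, beside -0.002 over all mRNAs), although Col4a3 and Col4a4 were at 0.33 and 0.31. Of 33 matrix glycoproteins and proteoglycans 25 were negative (median -0.30), and of 26 matrix proteases and inhibitors 22 (median -0.28; Timp3 -0.06, Adamts9 -0.26). Glucocorticoid targets were negative in 13 of 15 genes (median -0.30; Errfi1 -0.41). The summed level of the 11 stromal markers that did not choose the members was, in CPM of all UMIs, 2369 to 3004 in the cKOt libraries and 3119 to 3726 in the Ctrl libraries. Growth factor receptors had a median of -0.12 (33 of 48 negative) and ligands one of -0.12 (28 of 41 negative; Cxcl12 -0.37). Of the markers of other cells, 8 of 9 loop and distal tubule genes were positive (median 0.17) and 3 of 3 podocyte genes negative (median -1.08). Proximal tubule markers were positive in 6 of 11 genes (median 0.13), endothelial markers in 4 of 5 (median 0.12), and immune markers were negative in 2 of 3 (median -0.37). Adipocyte markers were summed only, because 4 of the 6 tested had enough counts only where the cKOt libraries at ZT4 entered. None of these markers was called, and their part in the signs of the lists was not tested. Genes on these lists share libraries and a scaling, so their signs are not independent.

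The same libraries allowed a test of whether time acts alike in members and in proximal tubule nuclei, with the library as a block. Within Ctrl, the difference of the time effects was called for 8 of 10915 mRNAs (0.0733%) and 0 of 843 lncRNAs (0%; 49 at an unadjusted p under 0.05). Arntl had a time effect of 3.79 in proximal tubule and 0.52 in members (difference -3.21, SE 0.24, adjusted p = 1.9e-05), and Npas2 3.34 and -0.09 (difference -3.4, SE 0.32, adjusted p = 0.000188). These activator genes of the clock rose in tubule and had no called change between the times in members of the same mice. Samples at ZT4 and ZT16 alone cannot tell a flat level from a rhythm of another phase. Nr1d2 had -2.52 in tubule and -0.95 in members (difference 1.60, SE 0.23, adjusted p = 0.00696). Per3 was lower at ZT16 in proximal tubule of Ctrl (73.3 and 67.6 CPM at ZT4, 29.99 and 20.7 CPM at ZT16) while members, with no call of their own, stood at 45.0 and 50.2 and then 97.2 and 54.8 CPM (difference 2.16, SE 0.29, adjusted p = 0.00536). Abca1, the cholesterol efflux transporter, stood at 62.0 and 67.3 CPM and then 38.1 and 31.3 CPM in tubule, and at 98.5 and 90.3 CPM and then 223 and 261 CPM in members (difference 2.28, SE 0.27, adjusted p = 0.00203).

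Arntl passed this test in each fit that left out 1 library and also in the members without a proximal tubule UMI (-3.24, adjusted p = 0.0044), and so did Abca1 in that subset (2.75, adjusted p = 0.0044). Abca1 had an adjusted p of 0.055 without Ctrl ZT16 replicate 2. In the same subset Npas2 (-2.46, adjusted p = 0.44), Per3 (1.36, adjusted p = 0.76) and Nr1d2 (1.38, adjusted p = 0.46) were not called. Per3 and Nr1d2 were also not called without Ctrl ZT4 replicate 1 or Ctrl ZT16 replicate 1 (adjusted p = 0.056 and 0.18 for Per3, 0.071 and 0.12 for Nr1d2), and Nr1d2 not without Ctrl ZT16 replicate 2 (0.21).

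**Figure D3:**
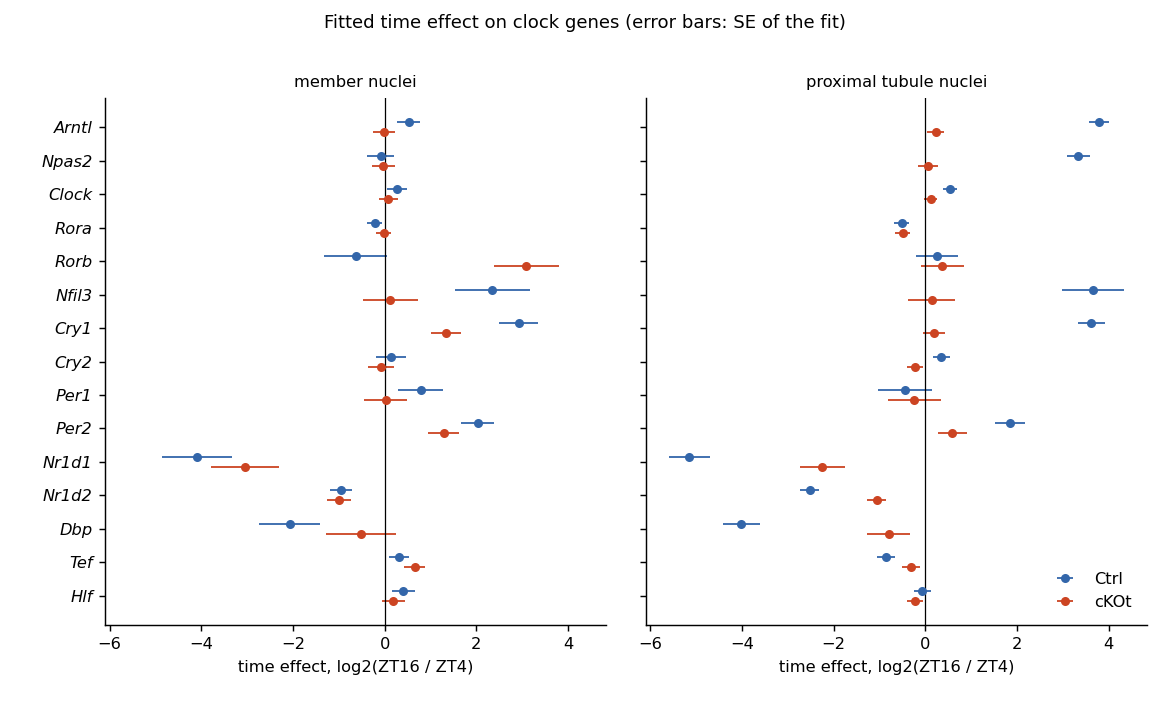
Points give the fitted time effect on the log2 scale (x axis, ZT16 over ZT4) of clock genes in Ctrl (blue) and cKOt (red), in members on the left and proximal tubule nuclei on the right, with bars for the SE. In proximal tubule Arntl and Npas2 lie at 3.79 and 3.34 in Ctrl and near 0 in cKOt, whereas in members both genotypes lie between -0.09 and 0.52 for these genes.

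The genotype effects of members and proximal tubule differed for 15 of 10915 mRNAs (0.137%) and 0 of 843 lncRNAs (0%; 65 at an unadjusted p under 0.05). Arntl, Npas2, Cpne4, Wsb1 and Nckap5 had the smallest p among those lower in members, and Nr1d2, Acvr2b, Mn1 and Per3 were higher. Per3 lost this call in each of the 8 fits that left out 1 library (adjusted p = 0.0538 to 0.241), and Acvr2b and Mn1 in 5 of them (up to 0.09 and 0.241). In proximal tubule Nr1d2 stood at 206 and 191 CPM in Ctrl and 28.7 and 35.7 CPM in cKOt at ZT4, while in members it stood at 150 and 175 and at 107 and 130 CPM (difference of the averaged effects 1.42, SE 0.17, adjusted p = 0.00131). Cpne4 had 0.73 in proximal tubule and -1.37 in members (difference -2.08, SE 0.19, adjusted p = 0.000251). Without the members with a proximal tubule UMI 0 mRNAs were called, with Cpne4 at -2.36 (adjusted p = 0.073) and Nr1d2 at 1.79 (adjusted p = 0.092).

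The change of the time effect with genotype differed between members and tubule for 3 of 10915 mRNAs (0.0275%), Arntl (2.98, SE 0.32, adjusted p = 0.00177), Npas2 (3.32, SE 0.41, adjusted p = 0.00405) and Unc13c (3.04, SE 0.38, adjusted p = 0.00405), and for 0 of 843 lncRNAs (0%; 40 at an unadjusted p under 0.05). For Arntl the time effect in proximal tubule was 3.79 in Ctrl and 0.23 in cKOt, and in members 0.52 and -0.01. Npas2 and Unc13c were not called without Ctrl ZT16 replicate 1 (adjusted p = 0.063 for each), and Arntl had an adjusted p of 0.055 in members without a proximal tubule UMI. Over all 14 alternatives the difference of Npas2 ranged from 1.78 to 3.73 (adjusted p up to 0.932). That of Unc13c ranged from 1.86 to 4.41 (adjusted p up to 0.941).

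**Figure D4:**
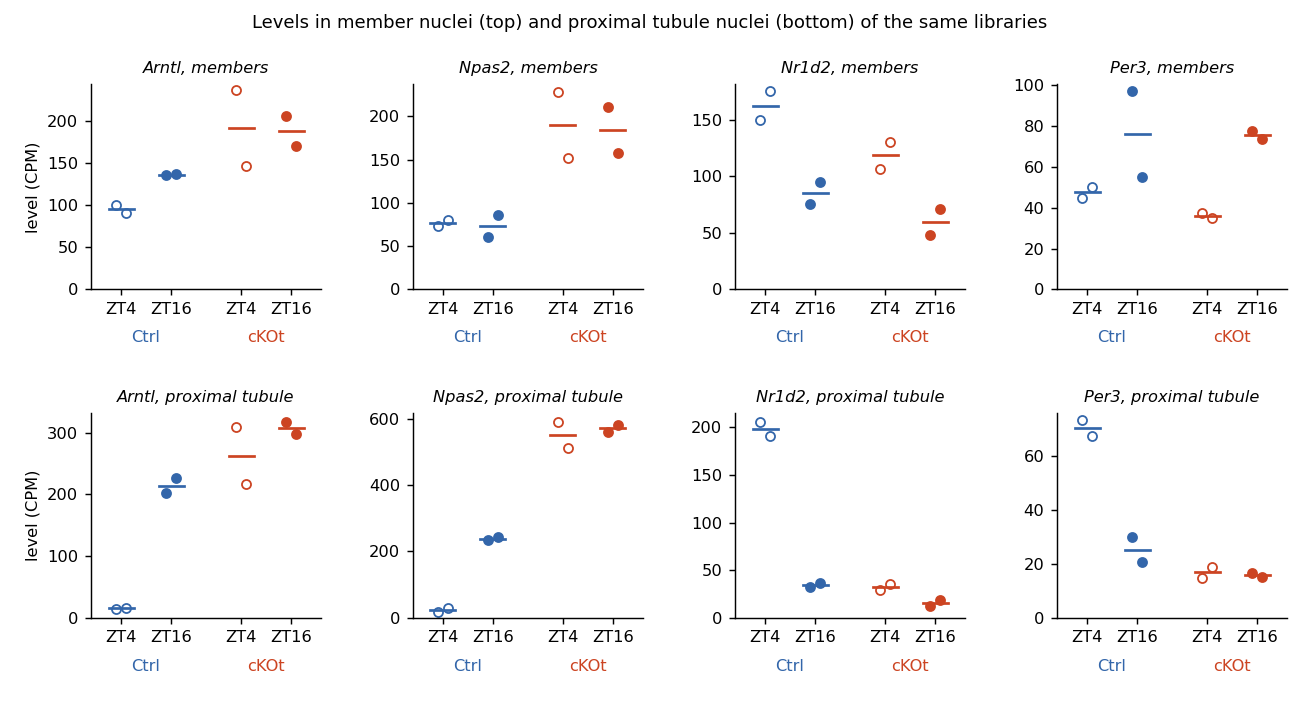
Levels in CPM (y axes, from 0, each with its own scale) of Arntl, Npas2, Nr1d2 and Per3 in members (top) and proximal tubule nuclei (bottom), with open points for ZT4, filled points for ZT16, blue for Ctrl, red for cKOt and lines at group means. In the tubule of Ctrl mice Arntl climbs from 14.5 and 16.5 CPM to 201 and 227 CPM, whereas in members it starts at 101 and 90.3 CPM.

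Against the other stromal set, the time effect differed for 1 of 10914 mRNAs (0.00916%) and 0 of 856 lncRNAs (0%; 47 at an unadjusted p under 0.05). That gene was Thsd4, with a difference of -1.40 (SE 0.17, adjusted p = 0.00434). In Ak5/Col14a1 nuclei Thsd4 stood at 189 and 238 CPM in Ctrl at ZT4, 261 and 273 in cKOt at ZT4, 197 and 297 in Ctrl at ZT16 and 202 and 263 in cKOt at ZT16, a log2 fold change of -0.00 (adjusted p = 0.999) beside -1.45 in members. The fall of Thsd4 was thus measured in members and not in Ak5/Col14a1 nuclei of the same mice. The difference was not called without Ctrl ZT16 replicate 2 (-1.28, adjusted p = 0.15) or cKOt ZT16 replicate 2 (-1.35, adjusted p = 0.063). The other values are given side by side. Cry1 had 1.81 in Ak5/Col14a1 nuclei and 2.13 in members, Per2 2.25 and 1.66, Nr1d1 -5.35 and -3.57, Nr1d2 -1.15 and -0.97, Ctnna2 -1.16 and -1.16, St6galnac3 -0.64 and -1.05, Ryr2 0.30 and 1.95 and Npas2 -0.96 and -0.06. Arntl stood at 74.7 to 104 CPM in Ctrl and 146 to 186 CPM in cKOt in Ak5/Col14a1 nuclei. In members it stood at 90.3 to 138 CPM in Ctrl and 146 to 237 CPM in cKOt. None of these genes was shown to differ in its time effect between both stromal sets. Over all mRNAs, 48 of 12711 tested were called by time in Ak5/Col14a1 nuclei and 62 of 14224 in proximal tubule nuclei. Both sets held more nuclei than the 2180 members, in which 11 of 10969 were called.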

How the data were processed

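Single-nucleus RNA-seq (10x Genomics 3' v3.1) of frozen kidneys was analyzed, 1 library per mouse, 8 in all. Per the labels the authors used bcl2fastq 2.20, Cell Ranger 7.1.0 and Seurat 5 on GRCm39, whereas the methods name mm10. The treatment of intronic reads is not stated in those sources. The deposited values are raw UMI counts per gene and called barcode. Quality control followed the methods, with minimums of 500 genes and 800 UMIs and a mitochondrial limit of 2%. Ak5/Col14a1 stromal nuclei had at least 2 UMIs of Ak5 and Col14a1, and proximal tubule nuclei at least 3 of 5 tubule genes with at least 5 UMIs.

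Counts were summed per library and set of nuclei, since nuclei are not replicates. The quasi-likelihood test of edgeR 4.0.16 (R 4.3.3) was fitted to all 4 groups after TMM scaling, mRNAs apart from lncRNAs, and a gene was tested when a compared group had 5 or more counts in each replicate. Calls had a Benjamini-Hochberg adjusted p under 0.05. Differences between sets of nuclei were tested with library as a block. Shares were compared by exact permutation (Python 3.11.15, scipy 1.17.1). DESeq2 1.42.0 and the other settings given in the closing section were alternatives, and the pipeline was tested on simulated data. No replicate pair was alike within counting error (chi-square over its degrees of freedom 2.92 to 3.72). Of 32285 features, 31674 were matched to the biotype annotation by identifier and 40 by symbol.

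Named genes were the clock genes, the called genes with the smallest p per comparison, the called or most abundant members of each list, and the leading genes of the members. Those picked by p in the averaged comparisons also had to show no overlap of the libraries compared. Genes just short of the threshold, Smoc2 and Dcn splits and Per3 levels were chosen after values were seen. Some genes are not reported here, so the genes named can be fewer than those counted. The members and lists were chosen with earlier results of these data known. Members carry sums of 577924 to 1193619 UMIs a library, so that lowly expressed genes often had too few counts to be tested.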

Additional observations from a re-analysis of the deposited data

Results flagged for a closer look

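The results below are those, at most 5 in each direction of a comparison, in which the same contrast differed between 2 sets of nuclei of the same libraries by a test of the difference itself (edgeR, library as a block, Benjamini-Hochberg adjustment over all genes tested). Values are differences of log2 fold changes, members minus the other set. Against Ak5/Col14a1 stromal nuclei the time effect of Thsd4 differed by -1.40 (adjusted p = 0.00434).

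Against proximal tubule nuclei within Ctrl, the time effect was higher in members for Abca1 (2.28, adjusted p = 0.00203), Per3 (2.16, adjusted p = 0.00536), Synpr (3.46, adjusted p = 0.00536) and Nr1d2 (1.60, adjusted p = 0.00696). It was lower for Arntl (-3.21, adjusted p = 1.93e-05), Npas2 (-3.4, adjusted p = 0.000188), the collagen gene Col18a1 (-1.68, adjusted p = 0.00536) and Unc13c (-1.82, adjusted p = 0.0212). Synpr stood at 81.7 and 90.3 CPM in members of the second replicates of Ctrl at ZT4 and ZT16 and at 10.7 and 13.7 CPM in the first ones, and without Ctrl ZT4 replicate 2 its difference was 2.83 (adjusted p = 0.506). Of the 8 fits that left out 1 library, Abca1 lost the call in 1, Per3 in 2, Nr1d2 and Col18a1 in 3 and Unc13c in 4 (adjusted p up to 0.295).

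For the genotype effect averaged over the times, members were above proximal tubule nuclei for Nr1d2 (1.42, adjusted p = 0.00131), the activin receptor gene Acvr2b (1.40, adjusted p = 0.0156), Mn1 (3.32, adjusted p = 0.0168) and Per3 (1.17, adjusted p = 0.0445). They were below for Cpne4 (-2.08, adjusted p = 0.000251), Arntl (-1.56, adjusted p = 0.000514), Wsb1 (-1.23, adjusted p = 0.000831), Nckap5 (-1.30, adjusted p = 0.00131) and Npas2 (-1.57, adjusted p = 0.00379). Of the 15 differences called, the other 6 were Pdgfd, Fmnl2, Mgat4a, Thra, Wipf1 and Dtx4, also below in members (-1.59 to -0.85, adjusted p = 0.00467 to 0.044). When 1 library was left out, the difference of Per3 was called in 0 of 8 fits, those of Acvr2b and Mn1 in 3 and that of Npas2 in 7. The change of the time effect with genotype differed for Arntl (2.98, adjusted p = 0.00177), Npas2 (3.32, adjusted p = 0.00405) and Unc13c (3.04, adjusted p = 0.00405). These 3 genes lost this call in 1, 3 and 2 of 14 alternatives.

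With members that carried a proximal tubule UMI left out, the time effects in Ctrl were still called for Arntl and Abca1, while the genotype differences of Acvr2b (1.24, adjusted p = 0.8), Wsb1 (-1.18, adjusted p = 0.24), Nckap5 (-1.31, adjusted p = 0.073) and Npas2 (-1.42, adjusted p = 0.58) were not.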

How the results depend on the processing

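Counts of called genes rest on 2 mice a group and on 180 to 356 nuclei a library, and 204 of their values under the alternatives moved by over 1.5 times. The causes were not tested. Leaving out members or libraries also makes the sums smaller, and the part of this was not tested either. Thsd4 and St6galnac3 were called by time under all 20 alternatives, Cry1 and Ryr2 under 19. The sets of Alx1 members and of members without an adipocyte UMI were chosen after seeing the data. With DESeq2, calls of mRNAs were 26 by time, 11 by time in Ctrl, 8 by time in cKOt, 8 by genotype, 8 by genotype at ZT4, 5 by genotype at ZT16 and 4 for the interaction, and of lncRNAs 1 by time, 0 by time in Ctrl, 0 by time in cKOt, 0 by genotype, 0 by genotype at ZT4 and 1 by genotype at ZT16. With DESeq2's size factors, calls of mRNAs were 2 by genotype at ZT16. With all genes in 1 fit, calls of mRNAs were 4 by genotype at ZT16, and of lncRNAs 2 by time, 0 by time in Ctrl, 1 by time in cKOt, 0 by genotype, 1 by genotype at ZT4 and 1 by genotype at ZT16. Without a filter on low counts, calls of mRNAs were 180 by time, 69 by time in Ctrl, 146 by time in cKOt, 82 by genotype, 93 by genotype at ZT4, 55 by genotype at ZT16, 50 for the interaction, 47 for time against Ak5/Col14a1 nuclei, 94 for time in Ctrl against tubule, 63 for genotype against tubule and 71 for the interaction against tubule, and of lncRNAs 10 by time, 4 by genotype, 7 by genotype at ZT4, 4 by genotype at ZT16, 3 for the interaction and 2 for genotype against tubule. With filterByExpr, calls of mRNAs were 3 by genotype at ZT4 and 0 by genotype at ZT16, and of lncRNAs 8 by time and 0 by time in Ctrl. With the replicate number as a block, calls of mRNAs were 3 by genotype at ZT4, 2 by genotype at ZT16, 2 for the interaction and 14 for time in Ctrl against tubule, and of lncRNAs 3 by time in Ctrl, 2 by genotype, 4 by genotype at ZT16, 1 for time in Ctrl against tubule and 5 for genotype against tubule. With at least 5 UMIs of the 5 genes, calls of mRNAs were 1 by time in Ctrl, 0 by genotype at ZT16, 13 for time in Ctrl against tubule and 5 for the interaction against tubule, and of lncRNAs 4 by time, 0 by time in Ctrl, 3 by time in cKOt, 0 by genotype at ZT4, 1 by genotype at ZT16 and 1 for time in Ctrl against tubule. With at least 3 of the 5 genes, calls of mRNAs were 17 by time, 8 by time in cKOt and 1 by genotype at ZT4, and of lncRNAs 5 by time, 0 by time in Ctrl, 3 by time in cKOt, 0 by genotype, 0 by genotype at ZT4 and 0 by genotype at ZT16. Without Scrublet doublets, calls of mRNAs were 18 by time, 1 by time in Ctrl, 10 by time in cKOt, 2 by genotype, 0 by genotype at ZT4, 3 by genotype at ZT16, 1 for the interaction, 2 for time against Ak5/Col14a1 nuclei and 16 for time in Ctrl against tubule, and of lncRNAs 7 by time, 4 by genotype, 1 for time against Ak5/Col14a1 nuclei and 2 for genotype against tubule. Without members with a proximal tubule UMI, calls of mRNAs were 2 by time, 0 by time in Ctrl, 0 by genotype, 0 by genotype at ZT4, 3 for time against Ak5/Col14a1 nuclei, 2 for time in Ctrl against tubule, 0 for genotype against tubule and 1 for the interaction against tubule, and of lncRNAs 0 by time, 0 by time in Ctrl, 0 by time in cKOt, 1 by genotype at ZT4 and 0 by genotype at ZT16. Without members with an adipocyte UMI, calls of mRNAs were 2 by time in Ctrl, 2 by time in cKOt, 3 by genotype at ZT4 and 2 by genotype at ZT16, and of lncRNAs 4 by time, 3 by time in cKOt and 0 by genotype at ZT4. With only Alx1 members, calls of mRNAs were 18 by time, 0 by time in Ctrl, 0 by genotype, 0 by genotype at ZT4 and 0 by genotype at ZT16, and of lncRNAs 1 by time, 0 by time in Ctrl, 2 by time in cKOt, 0 by genotype, 0 by genotype at ZT4 and 0 by genotype at ZT16. Leaving out 1 library at a time, calls of mRNAs ranged over 5 to 29 by time, 0 to 7 by time in Ctrl, 0 to 10 by time in cKOt, 1 to 8 by genotype, 0 to 6 by genotype at ZT4, 0 to 5 by genotype at ZT16, 0 to 6 for the interaction, 0 to 4 for time against Ak5/Col14a1 nuclei, 3 to 16 for time in Ctrl against tubule, 5 to 18 for genotype against tubule and 2 to 10 for the interaction against tubule, and calls of lncRNAs ranged over 0 to 19 by time, 0 to 5 by time in Ctrl, 2 to 8 by time in cKOt, 0 to 3 by genotype, 1 to 8 by genotype at ZT4, 0 to 4 by genotype at ZT16, 0 to 3 for the interaction, 0 to 4 for time against Ak5/Col14a1 nuclei, 0 for time in Ctrl against tubule, 0 to 1 for genotype against tubule and 0 to 1 for the interaction against tubule. The replicate numbers were not taken to pair the mice. Deviations of libraries with the same number correlated between -0.040 and 0.076 over 6 pairs of groups. These values cannot exclude a shared batch, since counting noise enters the deviations. The fit with the replicate block called 9 mRNAs and 24 lncRNAs by time.

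The difference in the share of members between ZT16 and ZT4 turned positive with at least 3 of the 5 genes (0.201 points), with at least 5 UMIs of them (0.0295) and after thinning each nucleus to 1500 UMIs (0.213), and ranged from -0.271 to 0.163 when 1 library was left out. That between cKOt and Ctrl ranged from -0.403 to 0.0316. The median UMI count per member differed by 29.5 to 322 between the times and by 56.6 to 341 between the genotypes when 1 library was left out, and it has no thinned value because thinning fixes it. The time effect of Cry2 was -4.9e-05 with the replicate block, -0.0609 without members with a proximal tubule UMI, -0.0114 without members with an adipocyte UMI and -0.119 to 0.179 when 1 library was left out. That of Npas2 was 0.118 without members with a proximal tubule UMI and -0.197 to 0.105 when 1 library was left out, that of Per1 -0.560 without members with a proximal tubule UMI and that of Rorb -0.259 in Alx1 members, none of them called. Over all single genes and their alternatives, 1081 values kept direction and side of the threshold, 540 lost the call, 8 gained it (all for Nr1d2 by time) and 13 changed sign.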
